A study of Mus musculus with 12 samples.

Results

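Expression of the miRNAs embedded in the imprinted genes H19 and Igf2 was examined in quadriceps muscle of mice at postnatal day 7. The members were the rows of the array table whose name has the stem miR-675, which lies in H19, or miR-483, which lies in Igf2, with any arm. There were 4 such rows among 1096, mmu-miR-483, mmu-miR-483*, mmu-miR-675-5p and mmu-miR-675-3p, written without the species prefix below. The samples were 6 wild-type mice (WT1 to WT6) and 6 mice null for cofilin-2 (KO1 to KO6), all of strain C57Bl/6, each mouse measured separately. The methods describe the groups as littermates; no further allele, treatment or sex is given. Cofilin-2 is the actin-severing cofilin of skeletal muscle, and its gene, Cfl2, cannot be read on a miRNA array, so that the genotypes were not checked here.

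H19 and Igf2 are neighbouring imprinted genes. Igf2 encodes insulin-like growth factor 2, a fetal growth factor that is transcribed from the paternal allele, and H19 makes a noncoding RNA from the maternal allele. A control region between them, bound by the insulator protein CTCF on the maternal copy, decides which gene uses the shared enhancers. Both are highly active in fetal muscle and decline after birth, and H19 returns when muscle regenerates. The miR-675 hairpin is cut from the first exon of H19, and its products are known to favour the differentiation of myoblasts and to restrain growth of the placenta. The miR-483 hairpin lies in an intron of Igf2 and can be made with Igf2 or on its own. Other miRNAs of imprinted genes come from the Dlk1-Dio3 region, from an intron of Sfmbt2, from Mest and from the Gnas region.

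In the RefSeq annotation of GRCm38.p6, H19 spans chr7:142575530-142578146 and Igf2 chr7:142650768-142666816, both on the minus strand, with 72.6 kb between them. The Mir675 hairpin (chr7:142577064-142577147) lay inside H19 and the Mir483 hairpin (chr7:142654924-142654996) inside Igf2, with 77.8 kb between the hairpins. The annotation table used holds no exons. The hairpins are shown because each gives rise to a pair of the measured miRNAs; the capitals mark the mature products, the 5p product first.
Mir675: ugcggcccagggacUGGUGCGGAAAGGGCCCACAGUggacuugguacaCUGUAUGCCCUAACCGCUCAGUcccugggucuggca
Mir483: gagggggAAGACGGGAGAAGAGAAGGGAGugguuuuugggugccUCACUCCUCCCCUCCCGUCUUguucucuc

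**Figure D1:**
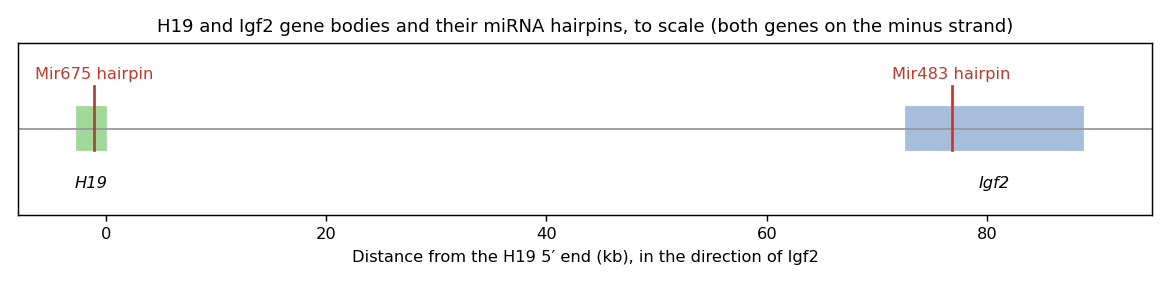
The H19 and Igf2 gene bodies (boxes) and their miRNA hairpins (red lines), drawn to scale; the horizontal axis is the distance in kb from the 5′ end of H19 towards Igf2. The hairpins sit 77.8 kb apart.

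The mature products are given below with the seed, bases 2 to 8, in capitals, since the seed sets which transcripts a miRNA can pair with.
miR-675-5p: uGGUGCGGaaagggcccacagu
miR-675-3p: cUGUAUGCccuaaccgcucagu
miR-483-5p: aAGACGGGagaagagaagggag
miR-483-3p: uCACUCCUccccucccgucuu
The 4 seeds differed from one another, and none of them recurred in the other mouse miRNAs among the 1679 mature names of the RefSeq table, which is not complete. The longest run of bases shared with a miRNA of another gene was 10 for either product of Mir483 (miR-484 for the 3p product), 9 for miR-675-5p and 8 for miR-675-3p. The products of Mir483 differ in composition: miR-483-5p is 95.5% purine and 54.5% G or C, and miR-483-3p is 9.52% purine and 61.9% G or C. miR-675-5p is 63.6% and miR-675-3p 54.5% G or C. The array uses the older names miR-483 and miR-483*, which do not state the arm, and no file pairs these names with a sequence. They are therefore kept as they stand below, without an arm.

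The deposited values are normalized intensities on a linear scale, 1 per miRNA and sample; an intensity reports brightness and has no count behind it. Each sample summed to between 594311 and 636136, and its median miRNA lay at 12 to 14. KO and WT were compared on the log2 scale, with values under 1 raised to 1, by limma over the 370 miRNAs whose intensity averaged 32 or more over the 12 samples, with Benjamini-Hochberg adjustment over these. All WT samples are labelled Cy5 and all KO samples Cy3, so that dye and genotype cannot be told apart in any comparison below. KO1 stood apart from its group, with a mean correlation of 0.848 to the other KO samples, against 0.907 to 0.945 for KO2 to KO6 and 0.949 to 0.970 in WT. The skeletal muscle miRNAs miR-1a, miR-133a, miR-133b and miR-206 were bright, with a summed intensity of 81000 to 93229 in WT and 78874 to 105680 in KO. Of the markers of other cells, the liver miRNA miR-122, the neuronal miR-124 and miR-9 and the epithelial miR-200c, miR-141 and miR-205 reached at most 35 in any sample. The red cell miRNA miR-451 ran from 43 to 417 in WT and from 16 to 318 in KO, while its cluster partner miR-144 was at most 6 and went down to 0 in KO.

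Of the 4 members, miR-483 was bright, 138.2 to 337.2 times the median intensity of its own sample and 57th of 1096 by mean. The other 3 were dim, at 1.07 to 6.80 times the median of their own sample. 2 of the 4 passed the intensity filter, miR-483 and miR-675-5p, the latter narrowly with a mean of 36.3. miR-675-5p passed through KO alone, with a mean of 43.3 there and of 29.3, below the cutoff, in WT. The filter was set on all samples and was not reset when a sample, such as KO1, was left out. miR-483* (mean 29.8) and miR-675-3p (mean 25.8) fell below it and were not part of the limma fit. Of the 2 members fitted, limma called 0 after adjustment and 1, miR-483, at an unadjusted p under 0.05; the methods' t-test also called 0 after adjustment. Among all 370 miRNAs, 1.35% were called after adjustment, 9.73% were higher in KO at the unadjusted threshold and 9.73% were lower. Quadriceps RNA comes from many cell types, so that a change in the number of cells of a type and a change in the RNA per cell cannot be told apart.

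In WT, miR-483 had a normalized intensity of 1796 in the lowest sample, WT6, a median of 2206 and 3263 in the highest, WT4. In KO the lowest was 2946 in KO6, the median 3558.5 and the highest 4046 in KO5. 5 KO samples exceeded the highest WT value, and KO6 lay above 5 of the WT samples, so that the groups overlapped through WT4 and KO6 alone. The mean was 2416 ± 544.8 (SD, n = 6) for WT and 3522 ± 375.7 (SD, n = 6) for KO, a KO/WT ratio of 1.46. The log2 change was 0.57 (standard error 0.190, 95% interval 0.16 to 0.97). Its unadjusted limma p was 0.0103, and the adjusted p was 0.122. Taken as a single value, the difference of the log2 means had p = 0.0043 in a two-sided exact permutation test over all assignments of 6 of the 12 samples, whose smallest possible p is 0.0022. Among the 370 miRNAs it was the 54th highest in the direction of KO, and 29.2% of them had a log2 change at least as large in either direction. Its standard error, 0.190, was below the median over all of them, 0.308. The coefficient of variation of miR-483 was 22.6% in WT and 10.7% in KO. The direction was kept whichever sample was left out: the log2 change ran from 0.49 to 0.66 and the adjusted p from 0.0724 without WT4 to 0.243. With a weight for each array, which gave KO1 the lowest weight, 0.156, the adjusted p was 0.0079. miR-483 passed the adjusted threshold in no other setting and with no single sample left out. The same weights raised the number of other imprinted miRNAs past an unadjusted p of 0.05 from 8 to 36 of 111. The share over all 370 miRNAs with these weights was not set beside this count. Whether the rise was particular to the imprinted miRNAs was not tested.

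**Figure D2:**
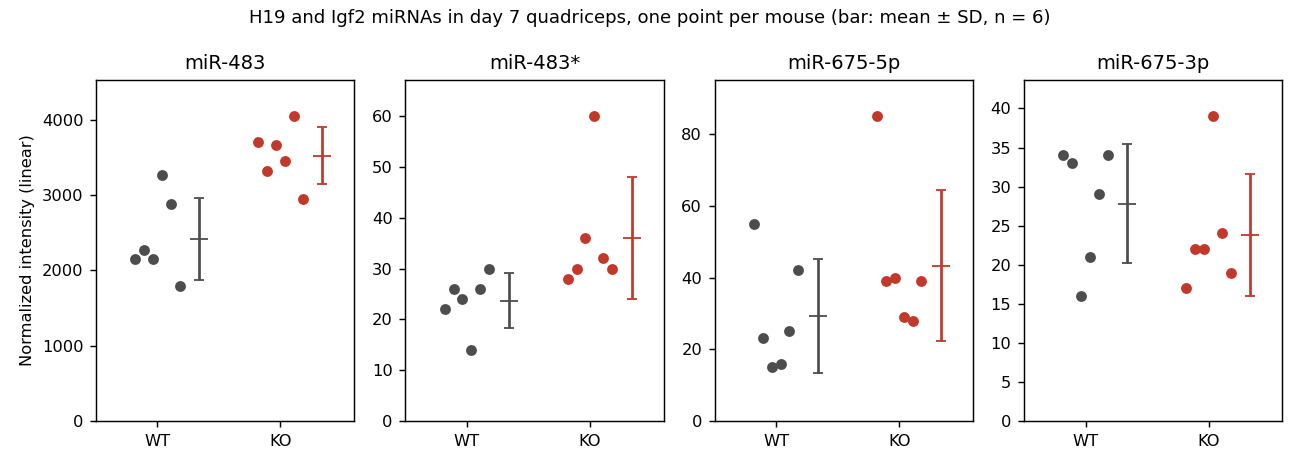
Normalized intensity (linear axis from 0, a separate scale for each miRNA) of the 4 miRNAs in each WT and KO mouse; bars give the mean ± SD of 6 mice. For miR-483 only WT4 at 3263 reaches the range of KO, and for miR-483* only WT6 at 30. The groups of both miR-675 products overlap through more samples, with a single KO sample above WT in each (KO1 at 85 and KO4 at 39).

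miR-483*, the product of the other strand of the same hairpin, was dim. Its intensity ran from 14 in WT4 through a median of 25 to 30 in WT6, and from 28 in KO1 through a median of 31 to 60 in KO4. 3 KO samples exceeded all of WT, and of WT only WT6 reached the range of KO. WT averaged 23.7 ± 5.43 (SD, n = 6) and KO 36.0 ± 12.1 (SD, n = 6). The log2 change was 0.59, with p = 0.0087 in the exact permutation test, which is not corrected for the number of miRNAs. With all 1096 names in the limma fit its 95% interval was 0.0096 to 1.17 and its adjusted p 0.422. With intensities under 32 raised to 32, which covers every WT value, the log2 change was 0.18 (exact permutation p = 0.455).

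miR-675-5p, from H19, had intensities of 15 in WT3 to 55 in WT1 with a median of 24, and of 28 in KO5 to 85 in KO1 with a median of 39. KO1 was the only KO sample above every WT sample, and no KO sample was below them all. WT averaged 29.3 ± 15.9 (SD, n = 6) and KO 43.3 ± 21.1 (SD, n = 6), with coefficients of variation of 54.1% and 48.7%. The log2 change was 0.62 (standard error 0.362, 95% interval -0.16 to 1.40, limma adjusted p = 0.361; two-sided exact permutation p = 0.143). Without KO1 it was 0.40 (limma adjusted p = 0.420). A floor of 32 brought it to 0.19. The difference between the genotypes was thus within the spread of the mice, and the interval holds both no change and a change of the size seen for miR-483.

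miR-675-3p, the other product of that hairpin, ran from 16 in WT3 through a median of 31 to 34 in WT1 and WT6, and from 17 in KO1 through a median of 22 to 39 in KO4. WT averaged 27.8 ± 7.63 (SD, n = 6) and KO 23.8 ± 7.83 (SD, n = 6). The log2 change was -0.22 (exact permutation p = 0.381; 95% interval -0.83 to 0.38 with all names in the limma fit). It was the only member with a lower mean in KO, and with a floor of 32 the sign turned, at 0.011. Its direction therefore depended on how dim values were treated.

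Unequal change of the members was asked of 3 pairs, each as the KO minus WT difference of the log2 difference between both miRNAs within a sample; p-values come from two-sided exact permutation tests and were adjusted over the 3 pairs. For miR-483 and miR-483*, the arms of the Igf2 hairpin, the difference was -0.024 (95% interval -0.73 to 0.69, adjusted exact p = 0.957). For miR-483 and miR-675-5p, from Igf2 and H19, it was -0.054 (95% interval -1.08 to 0.97, adjusted exact p = 0.957). These intervals are wide and do not show that the miRNAs changed alike. For miR-675-5p and miR-675-3p, the arms of the H19 hairpin, the difference was 0.84 (95% interval -0.089 to 1.78, adjusted exact p = 0.182). The log2 difference of 5p over 3p averaged -0.037 ± 0.457 (SD, n = 6) for WT and 0.81 ± 0.918 (SD, n = 6) for KO, and this did not pass the threshold. Without KO4, where miR-675-3p was highest, the difference was 1.09 (adjusted exact p = 0.0325), and without KO1, where miR-675-5p was highest, 0.54 (adjusted exact p = 0.357). A floor of 32 brought it to 0.18 (adjusted exact p = 0.584). Within the groups, the deviations of the members from their group means were related over the 12 samples in 6 pairs, none of which passed after adjustment. The closest were miR-483* and miR-675-3p (Pearson r = 0.695, permutation p = 0.0131, adjusted 0.0784, and Spearman rho = 0.695, permutation p = 0.0147, adjusted 0.0880). Without the 2 samples in which the deviation of miR-483* lay farthest from its median, r was 0.473. For miR-483 and miR-483* r was -0.446 (permutation p = 0.143, adjusted 0.427) and rho -0.295 (permutation p = 0.349, adjusted 0.753). Without the 2 samples in which the deviation of miR-483 lay farthest from its median, that r was 0.105.

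**Figure D3:**
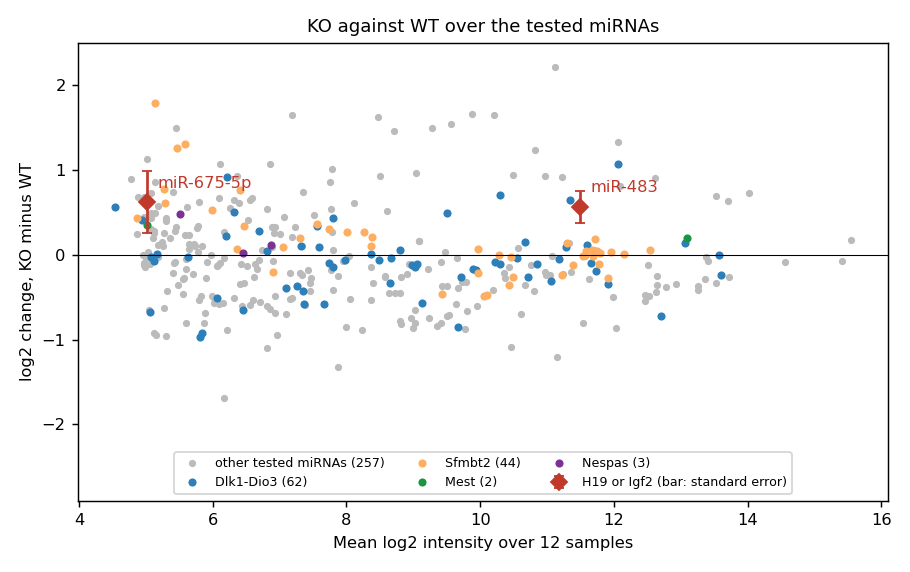
Log2 change, KO minus WT, against mean log2 intensity for the 370 tested miRNAs; colours mark miRNAs of imprinted loci and red diamonds the members fitted, with the standard error of limma. miR-483 (0.57) lies among bright miRNAs with a short bar, miR-675-5p (0.62) at the dim end with a long one.

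The miRNAs whose log2 intensity followed that of miR-483 most closely over the 12 samples, by Pearson's r, were miR-1224 (r = 0.874, rho = 0.741), miR-705 (r = 0.811, rho = 0.867), miR-1903 (r = 0.784, rho = 0.832), miR-762 (r = 0.776, rho = 0.797) and miR-3960 (r = 0.759, rho = 0.804). All 5 were higher in KO, by 0.69 to 2.21 on the log2 scale, so that part of the likeness is the shared difference between the genotypes. Taken on deviations from the group means, r fell to 0.668 for miR-1224, 0.507 for miR-705 and 0.313 to 0.419 for the other 3. miR-1903 passed the intensity filter through KO alone, with a mean of 27.5 in WT and 79.5 in KO. miR-1224, which is spliced out as a short intron, averaged 1519 ± 520 (SD, n = 6) for WT and 2827 ± 560 (SD, n = 6) for KO, which is 0.93 on the log2 scale (limma adjusted p = 0.0615). miR-675-5p was followed most closely by miR-877 (r = 0.836, rho = 0.813), miR-412-5p (r = 0.801, rho = 0.651), miR-5109 (r = 0.740, rho = 0.676), miR-5130 (r = 0.713, rho = 0.564) and miR-493 (r = 0.710, rho = 0.655). On deviations from the group means r was 0.625 to 0.857 for these 5. miR-877 also passed the filter through KO alone, with a mean of 29.5 in WT and 46.2 in KO. KO1, the highest sample of miR-675-5p, also stood apart from its group, and these correlations were not taken without it. miR-412-5p and miR-493 come from the Dlk1-Dio3 region; their log2 changes were 0.09 and 0.28, with adjusted limma p of 0.922 and 0.464. The correlations share the 12 samples and the 370 miRNAs they were picked from and are given as a description.

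The other imprinted loci were represented by 187 names on the array, of which 111 were fitted. 4 of the 111 were higher and 4 lower in KO at an unadjusted limma p under 0.05, which is 7.21% of them, against 19.5% of all 370. Their median log2 change was 0.0030, against -0.076 over all 370. miR-669l*, among the 4 higher, passed the intensity filter through KO alone. The count of 8 was 5 without WT3 and 17 without KO1. The share over all 370 was not set beside these counts. In the Dlk1-Dio3 region, a maternally expressed array of miRNAs on chromosome 12, 62 names were fitted, with 3 higher, 4 lower and a median of -0.078. The only one of the 111 past the adjusted threshold was miR-376b of this region, at 2177 to 3615 (median 3012) in WT and 5023 to 7849 (median 6065.5) in KO, which is a rise of 1.07 (log2, standard error 0.196, limma adjusted p = 0.0119). Its groups did not overlap. miR-376c, its neighbour, had a log2 change of 0.70 (limma adjusted p = 0.220) and miR-381 0.49 (limma adjusted p = 0.202). The lower ones of the region were miR-1188 (-0.97), miR-337-3p (-0.92), miR-434-3p (-0.72) and miR-370 (-0.51), with adjusted limma p of 0.132 to 0.232. miR-434-3p was bright, averaging 9074 ± 3192 (SD, n = 6) for WT and 5427 ± 1844 (SD, n = 6) for KO. miR-381 and miR-370, and the miRNAs of Mest and the Gnas region given next, are named after their values were seen.

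Of the names with the stems of the Sfmbt2 cluster, 44 were fitted, and 1 was higher at the unadjusted threshold, miR-669l*. It went from a median of 20.5 in WT to 77.0 in KO, over a range of 19 to 183 in KO, or 1.79 on the log2 scale (limma adjusted p = 0.105). miR-669l* passed the intensity filter through KO alone, with a mean of 92.8 there and of 20.8, below the cutoff, in WT. In the annotation 30 of the 44 names lie on chromosome 2 alone, so that these stems also hold miRNAs of other loci. The paternally expressed Mest gene carries miR-335. miR-335-5p was at 5318 to 12598 in WT and 5753 to 13496 in KO, or 0.20 on the log2 scale (limma adjusted p = 0.763), and miR-335-3p was dim with a change of 0.35 (limma adjusted p = 0.536). miR-335-3p also passed the filter through KO alone, with a mean of 29.5 in WT and 38.5 in KO. From the Gnas region, miR-298 had a log2 change of 0.48 (limma adjusted p = 0.261), and 4 KO samples exceeded the highest WT value, and miR-296-3p and miR-296-5p had 0.11 and 0.026. None of these 5 passed the unadjusted threshold.

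**Figure D4:**
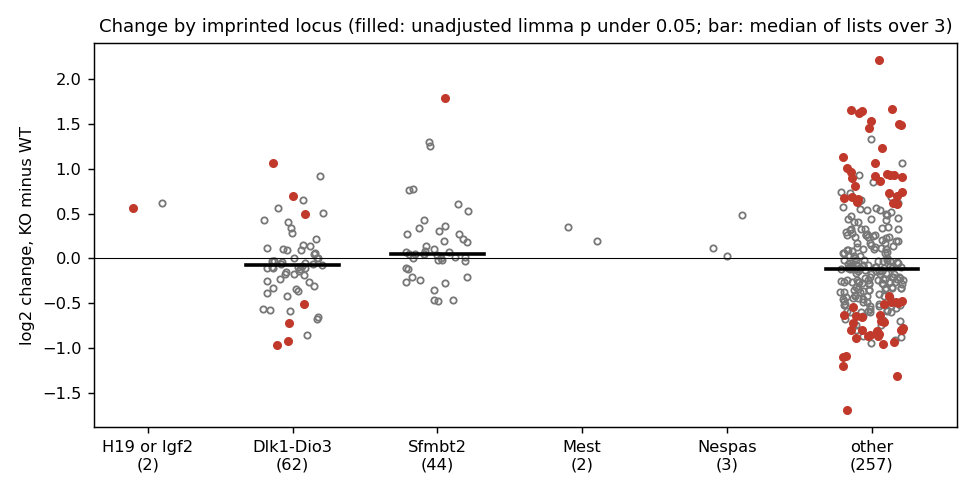
Log2 change, KO minus WT, of each tested miRNA by imprinted locus, with the number tested in brackets; filled points have an unadjusted limma p under 0.05 and black bars are medians of lists with more than 3 members. Of the H19 or Igf2 members, miR-483 is filled and miR-675-5p is not, and the medians of the Dlk1-Dio3 and Sfmbt2 lists lie at -0.078 and 0.053.

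**Figure D5:**
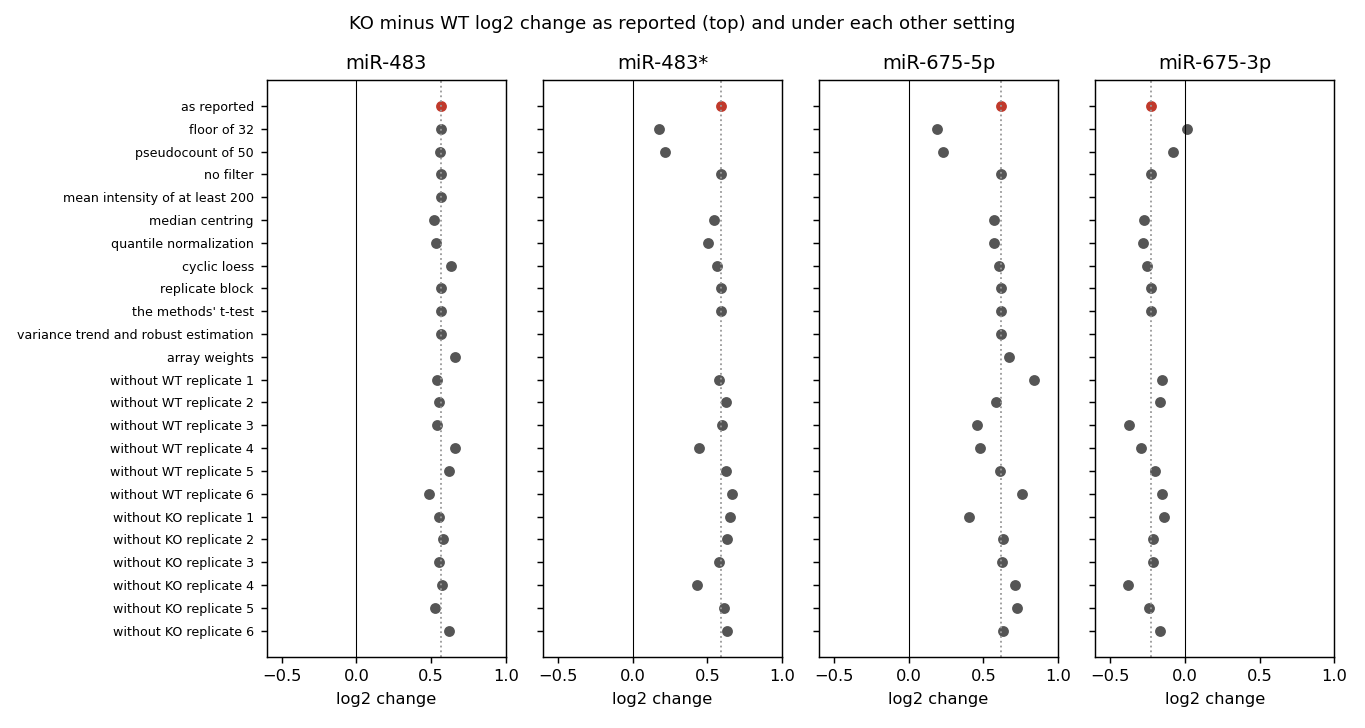
Log2 change, KO minus WT, of the 4 members as reported (red, dotted line) and under each other setting or with 1 sample left out; a missing point means that the miRNA was not fitted there. miR-483 stays between 0.49 and 0.66 throughout, whereas the dim miR-483* and miR-675-5p fall to 0.18 and 0.19 with a floor of 32 and miR-675-3p turns to 0.011.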

How the data were processed

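The array carries miRNAs of mouse miRBase and was run outside the authors' laboratory, on miRvana extracts of quadriceps. The values that the authors deposited are whole-number normalized intensities on a linear scale, in a single table of 12 samples; the normalization is not named in the sources used here, nor is the background correction. Samples were grouped by genotype and number in their titles. log2 values were taken after setting any intensity below 1 to 1. Names averaging below 32 were left out. KO was then compared with WT by limma 3.58.1 in R 4.3.3 (lmFit, eBayes, two-sided, Benjamini-Hochberg over 370 miRNAs, threshold 0.05). The fit was tested on simulated data, with planted changes larger than those of the members. That test therefore does not show whether changes of the size seen for the members would be found. The methods describe 6 littermate pairs, but no source ties a sample number to a pair, and the comparison was unpaired. Its p-values set the difference between the genotypes against the spread between these mice, which includes any difference between litters. Exact permutation tests served single values, and correlations used 100000 permutations. Sequences and positions are from RefSeq, GRCm38.p6.

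The members and lists were chosen with earlier results of these data known. Named miRNAs are the 4 members, the 5 most like each fitted member, markers, and of the other imprinted miRNAs those past the adjusted threshold and the 3 largest rises and falls past the unadjusted one; miR-381, miR-370 and the miRNAs of Mest and the Gnas region were added after their values were seen. The array gives the muscle miRNA miR-1 as miR-1a. Other settings tried were a floor (32), a pseudocount (50), other filters, median centring, quantile and cyclic loess normalization, the replicate number as a block, the methods' t-test, variance trend, array weights and leaving out each sample. Plots were drawn with matplotlib 3.10.9.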

Additional observations from a re-analysis of the deposited data

Results flagged for a closer look

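In each of 8 groups, the 4 members in WT and in KO, the log2 gap between the highest or lowest sample and its neighbour was divided by the whole range and set against Dixon's limit at the 5% level. Chance gives about 0.4 such groups, and 2 exceeded it. miR-483* was at 60 in KO4 and at 28 to 36 in the other KO samples, a gap of 0.67 of the range. Without KO4 its log2 change was 0.43 (exact permutation p = 0.0152). miR-675-5p was at 85 in KO1 and at 28 to 40 in the other KO samples, a gap of 0.679. Without KO1 its log2 change was 0.40 (limma adjusted p = 0.420). KO1 is also the sample with the lowest correlation to its group; whether this touches miR-675-5p was not tested. Both miRNAs are dim, at most 4.62 times (miR-483*) and 6.80 times (miR-675-5p) the median of their own sample.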

How the results depend on the processing

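The log2 change of miR-483 kept its direction under all 11 other settings (0.52 to 0.66) and with each sample left out (0.49 to 0.66). Among all of these it passed the adjusted threshold only with array weights, at 0.66. For miR-483*, p went past 0.05 with a floor of 32 (log2 change 0.18), and at an unchanged 0.59 with no filter, where p is adjusted over all names, and with the replicate block (exact p = 0.0625); left-out samples gave 0.43 to 0.67. miR-675-5p stayed above 0 (0.19 to 0.67; 0.40 to 0.83 with a sample left out) and never passed. miR-675-3p turned to 0.011 with a floor of 32 and ran from -0.38 to -0.14 with a sample left out. The pair miR-483 minus miR-483* (-0.024) turned to 0.39 with a floor of 32, 0.34 with a pseudocount of 50, 0.027 after quantile normalization and 0.066 after cyclic loess (-0.18 to 0.21 with a sample left out). miR-483 minus miR-675-5p (-0.054) turned to 0.38, 0.32 and, after cyclic loess, 0.032 (-0.30 to 0.18). miR-675-5p minus miR-675-3p (0.84) came to 0.18 and 0.31 with the floor and the pseudocount, and ran from 0.54 without KO1 to 1.09 without KO4. A floor and a pseudocount shrink changes of dim miRNAs by construction; for the rest the cause was not tested. The count of other imprinted miRNAs, 8 of 111, was 4 of 72 with a mean of at least 200. Of 111 it was 13 with the replicate block, 36 with array weights and 5 to 17 with a sample left out. The share over all tested miRNAs is not given for these settings, and whether the imprinted miRNAs moved apart from it was not tested.

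Same-numbered samples did not deviate together throughout (r = -0.453 to 0.594, with 2 of 6 WT samples closest to their own number). With so few pairs this cannot decide whether a shared number marks a littermate pair, and no source states it. The block changed no call beyond those given. A correction for GC content, alone or with the block, was not run, because only 33.2% of the 370 names have a single mature sequence in the table, under the 80% required. No detection limit comes with the table, and the intensities of 3 of the 4 members are dim, at 1.07 to 6.80 times the median of their own sample.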
